A study of Homo sapiens with 12 samples.

Results

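The genes described here are the STAT transcription factors STAT2, STAT3, STAT4, STAT5A, STAT5B and STAT6 and the feedback inhibitor SOCS3. They were chosen by name, and 6 of these 7 genes were listed among the 15601 genes of the deposited table over all libraries. STAT5A was listed in none of the 8 tables. STAT4 was listed in both tables over all 12 libraries but in only 3 of the 6 tables of a pair of groups, and the other 5 genes were listed in all of them. RNA was sequenced from 4 groups of SNU449 cells, a human hepatocellular carcinoma cell line of mesenchymal-like type, with 3 libraries in each. SNU449 control cells were naive Axl-proficient cells, and SNU449-Rego cells had become resistant during stepwise, long-term exposure to rising concentrations of the multikinase inhibitor Regorafenib (Rego). SNU449-Axl- control cells lacked the receptor tyrosine kinase Axl after CRISPR/Cas9 editing, and SNU449-Axl- Rego cells were made resistant in this Axl-deficient background by the same scheme. The libraries of a group are triplicates of 1 cell population, so that p-values measure only the spread between libraries, and an effect of Rego resistance or of Axl loss cannot be told apart from other differences between the populations.

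STAT proteins wait in the cytoplasm until a cytokine or growth factor receptor and its Janus kinases (JAKs) phosphorylate them, and then enter the nucleus as dimers that switch on target genes. STAT3 serves the IL-6 family of cytokines and growth factor receptors, and in liver it drives the acute-phase response. STAT2 works within the interferon-activated complex ISGF3, STAT4 mainly serves IL-12, STAT5A and STAT5B serve growth hormone and several interleukins, and STAT6 serves IL-4 and IL-13. SOCS3 is transcribed in response to STAT3 and shuts the same receptors off by blocking their JAKs, which makes it a classical feedback inhibitor. The RNA level of a STAT gene is no measure of its phosphorylation, which was not part of these data.

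According to the deposited annotation (GRCh38, GENCODE v40), STAT3 (ENSG00000168610.16) lies on the minus strand of chromosome 17 from 42313324 to 42388540. STAT5B (ENSG00000173757.10) lies on the same strand of that chromosome from 42199177 to 42276707. STAT5A is annotated in GENCODE v44 on the plus strand of this region, from 42287547 to 42311943, and in that annotation shares 1087 bases with STAT5B. SOCS3 (ENSG00000184557.4) lies further along chromosome 17, on the minus strand from 78356778 to 78360077. STAT2 (ENSG00000170581.14, 56341597 to 56360167) and STAT6 (ENSG00000166888.12, 57095408 to 57132139) are both on the minus strand of chromosome 12. STAT4 (ENSG00000138378.19) is on the minus strand of chromosome 2 from 191029576 to 191151596. In GENCODE v44, STAT6 shares 69 bases with NAB2 and 3657 bases with LRP1, both listed genes on the opposite strand. The strand setting of the gene counting is not given in the sources used here, so that reads in these shared stretches cannot be assigned with certainty. STAT5B resembles STAT5A closely in its coding sequence, and reads that fit both could not be told apart.

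The promoter of STAT3, the gene with called differences, is shown as the 250 bases upstream of the annotated gene start, read 5′ to 3′ on the gene's strand from GRCh38. Capitals would mark a match to TTCNNNGAA, the palindromic motif that STAT dimers are known to bind, and there is none.
STAT3, chr17:42388541-42388790, minus strand: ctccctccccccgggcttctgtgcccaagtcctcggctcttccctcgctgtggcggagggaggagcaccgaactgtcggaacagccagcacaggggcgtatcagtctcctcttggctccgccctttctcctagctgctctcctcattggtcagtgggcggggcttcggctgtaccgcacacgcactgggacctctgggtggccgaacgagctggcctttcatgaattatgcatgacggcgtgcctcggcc
The windows of STAT2, STAT4, STAT5B and STAT6 held no match either. On either strand, this motif was found in 5.87% of the 15597 promoter windows of the same length. The wider motif known for STAT6, in which 4 free bases separate TTC and GAA, occurred on either strand in 4.56% of the windows, and the core of the interferon response element, GAAA repeated after 2 free bases, in 2.67%. None of these 5 STAT genes held either of them. The absence of a match says only that these letters are not in the window.

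By their mean normalized counts over the 12 libraries, as computed by the authors, STAT3 was the most abundant at 998.9, followed by SOCS3 at 555.5 and STAT6 at 194.6. STAT5B had 69.12 and STAT2 64.09 normalized counts. STAT4 had 3.35, the lowest. QuantSeq libraries count fragments at the 3′ end of a transcript, so these counts were not divided by transcript length. The values per library given below are batch-corrected, variance-stabilized expression values without a unit. Differences are on the scale of log2(value + 1), with the standard error (SE) of the fit, and understate the change of weakly expressed genes. The p-values were obtained with limma and adjusted after Benjamini and Hochberg for the 15601 genes of the table, and a gene was called when its adjusted p was under 0.05.

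The groups were first checked by AXL itself, the edited gene, which encodes the receptor for the ligand Gas6. Its library values were 727, 941 and 715 in SNU449 control and 1237, 815 and 1271 in SNU449-Rego cells. They were 35, 53 and 33 in SNU449-Axl- control and 50, 38 and 52 in SNU449-Axl- Rego cells. AXL was thus far lower in every Axl-deficient library, by a log2 difference of -4.29 ± 0.235 (SE, adjusted p = 2.2e-09, limma) in control and -4.52 ± 0.235 (adjusted p = 1.3e-09, limma) in Rego-resistant cells. Of the fixed marker genes, all 6 of mesenchymal-like cells were listed, against 3 of 11 of hepatocytes, 2 of 6 of leukocytes and 0 of 5 of endothelial cells. ALB, TTR and HNF4A, which define hepatocytes, were not listed.

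STAT3 showed the clearest pattern. It was lowest in SNU449 control cells, intermediate in SNU449-Axl- control cells and highest in both Rego-resistant populations, and it was the only one of the 6 genes to be called in any comparison. Its library values were 489, 543 and 435 in SNU449 control cells, a mean log2 level of 8.93 ± 0.16 (SD, n = 3). They were 1417, 1522 and 1331 in SNU449-Rego cells (10.47 ± 0.0967), 671, 789 and 887 in SNU449-Axl- control cells (9.60 ± 0.202) and 1465, 1046 and 1328 in SNU449-Axl- Rego cells (10.31 ± 0.25). Each SNU449 control library lay below each library of the other 3 groups, and the libraries of the resistant populations overlapped with each other but with neither control group. STAT3 rose 2.91-fold with Rego resistance in SNU449 cells, a log2 difference of 1.54 ± 0.192 (SE, adjusted p = 4.9e-05, limma), and ranked 87th of the 673 genes that rose when these were ordered by size. In SNU449-Axl- cells it rose 1.63-fold with resistance, by 0.70 ± 0.192 (adjusted p = 0.0444, limma). Between the control populations it was 1.59-fold higher without Axl, by 0.67 ± 0.192 (adjusted p = 0.0395, limma). Between the resistant populations the difference was -0.17 ± 0.192 (adjusted p = 0.721, limma), and 0.13 with the libraries centred on the spike-in RNAs. The Rego effect was larger by 0.84 ± 0.272 in SNU449 than in SNU449-Axl- cells, but this difference of effects did not pass the threshold (adjusted p = 0.0795, limma).

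The call in Axl-proficient cells stood when any single library was left out (1.43 to 1.65, adjusted p at most 0.00102, limma). The calls in SNU449-Axl- cells and between the control populations were close to the threshold. With 1 of 12 libraries left out at a time, the former remained in 5 and the latter in 4 of the 12 fits, with values from 0.56 to 0.89 and from 0.55 to 0.81. The call in SNU449-Axl- cells was lost without replicate 1 (0.56) or 2 (0.72) of SNU449-Axl- control, 1 (0.56) or 3 (0.66) of SNU449-Axl- Rego, 2 of SNU449 control, or 1 or 2 of SNU449-Rego (0.70 each). The call between the controls was lost without replicate 1 (0.68), 2 (0.78) or 3 (0.56) of SNU449 control, 2 (0.66) or 3 (0.55) of SNU449-Axl- control, 1 of SNU449-Rego, or 1 or 3 of SNU449-Axl- Rego (0.67 each). These fits have fewer libraries to estimate the spread from. In the tables of these pairs of groups alone, neither passed (0.63, adjusted p = 0.0597, and 0.72, adjusted p = 0.0809, limma), nor did the former with the libraries centred on the median gene (0.66, adjusted p = 0.0627, limma).

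**Figure D1:**
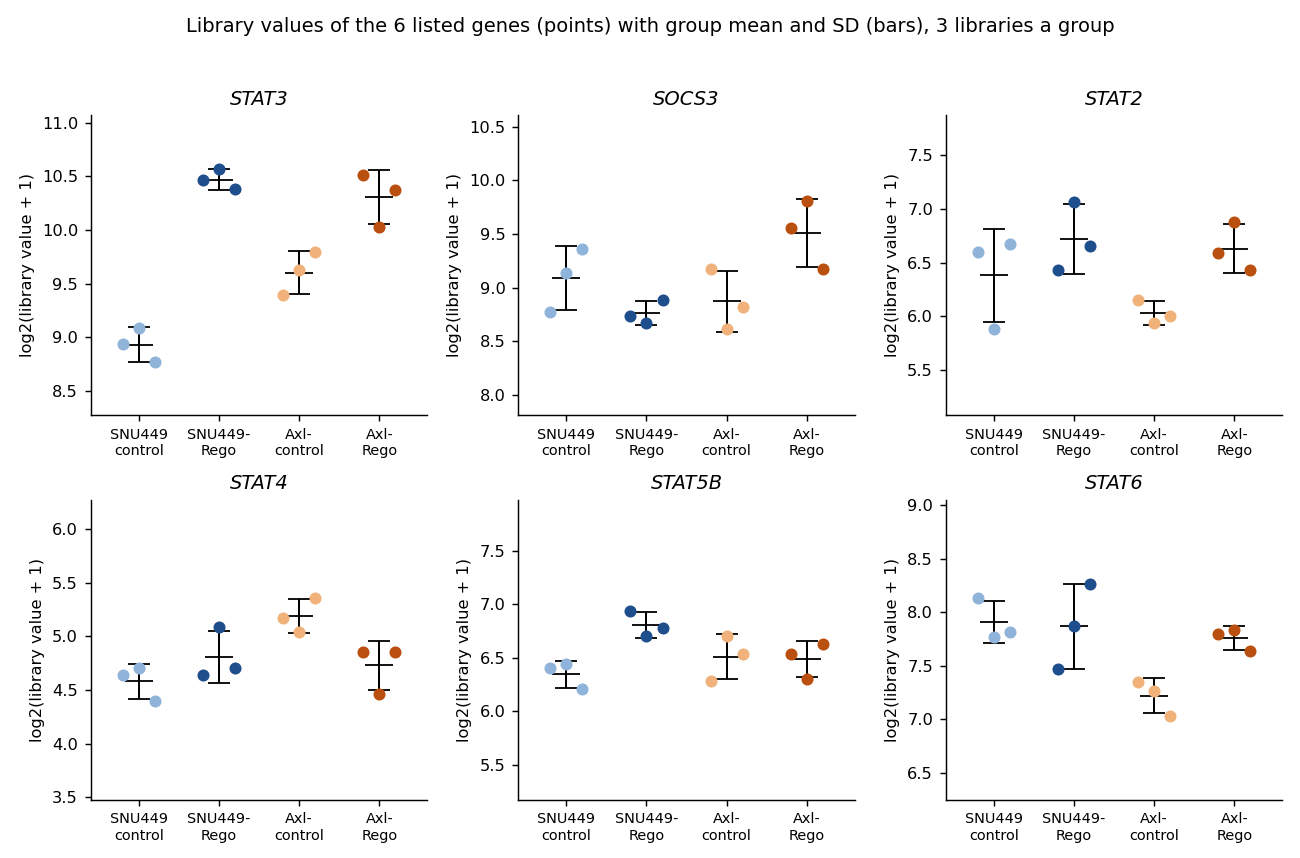
Library values of the 6 listed genes on the scale of log2(value + 1), with 1 panel per gene, points for the 3 libraries of each of the 4 groups, and bars for the group mean and SD. All panels span the same log2 range, and STAT3 separates the SNU449 control libraries (435 to 543) from the SNU449-Rego libraries (1331 to 1522) by the widest gap.

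Both control groups also lay below the resistant populations in normalized counts. The authors' mean normalized counts of the 6 pair tables can be resolved into 1 mean per group, and this gave STAT3 450.1 in SNU449 control, 1314 in SNU449-Rego, 841.3 in SNU449-Axl- control and 1407 in SNU449-Axl- Rego cells, so that the resistant populations stood in the opposite order to that of the library values. These group means have no error of their own, and over the 12878 genes in all pair tables their median misfit was 0.372%. The genes with the profile most like that of STAT3 over the 12 libraries, among 8189 genes with a mean normalized count of at least 50, were NCOA7 (Pearson's r = 0.97), ULK2 (r = 0.967) and SDC2 (r = 0.965). NCOA7 encodes a nuclear receptor coactivator, ULK2 an autophagy-initiating kinase and SDC2 the heparan sulfate proteoglycan syndecan-2. SDC2 ran from a mean log2 level of 4.97 in SNU449 control to 8.35 in SNU449-Rego, with 6.31 in SNU449-Axl- control and 8.47 in SNU449-Axl- Rego cells. As the 12 libraries form 4 groups, these correlations mainly compare 4 group means and are given as a description.

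The groups stood in another order for SOCS3. It was highest in SNU449-Axl- Rego cells and lowest in SNU449-Rego cells, although both populations had high STAT3 values. Its library values were 436, 561 and 655 in SNU449 control cells (mean log2 level 9.09 ± 0.296, SD, n = 3) and 424, 407 and 472 in SNU449-Rego cells (8.76 ± 0.11). They were 576, 391 and 449 in SNU449-Axl- control cells (8.87 ± 0.283) and 752, 896 and 577 in SNU449-Axl- Rego cells (9.51 ± 0.319). The SNU449-Axl- Rego libraries lay above those of SNU449-Rego and of SNU449-Axl- control cells without overlap, but overlapped with those of SNU449 control cells, and the other groups overlapped with each other. None of the differences passed the threshold. The Rego effect on SOCS3 was -0.32 ± 0.219 (adjusted p = 0.427, limma) in SNU449 and 0.65 ± 0.219 (adjusted p = 0.105, limma) in SNU449-Axl- cells. With Axl loss, SOCS3 differed by -0.22 ± 0.219 (adjusted p = 0.627, limma) in control and by 0.75 ± 0.219 (adjusted p = 0.0599, limma) in resistant cells. The difference between the Rego effects was -0.97 ± 0.309 (adjusted p = 0.0742, limma). The comparison of the resistant populations passed the threshold in the table of this pair alone (0.67, adjusted p = 0.0187, limma), with the libraries centred on the spike-in RNAs (1.04, adjusted p = 0.00655, limma), and in 4 of the 12 fits without 1 library, namely SNU449 control replicate 1 or 3 or SNU449-Axl- control replicate 1 (0.75 each) or SNU449-Axl- Rego replicate 3 (0.98). The difference between the Rego effects passed without SNU449 control replicate 1 (-1.18), SNU449-Axl- control replicate 1 (-1.17) or SNU449-Axl- Rego replicate 3 (-1.20). Resolved into group means, the normalized counts were 529.9 in SNU449 control, 355.6 in SNU449-Rego, 509 in SNU449-Axl- control and 853.3 in SNU449-Axl- Rego cells.

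STAT2 was lowest in SNU449-Axl- control cells and about as high in both resistant populations, with no difference that passed the threshold. The libraries gave 96, 58 and 101 in SNU449 control, 85, 133 and 100 in SNU449-Rego, 70, 60 and 63 in SNU449-Axl- control, and 95, 117 and 85 in SNU449-Axl- Rego cells. Replicate 2 of SNU449 control, at 58, was the lowest of the 12 libraries, and the libraries of SNU449 control cells overlapped with those of the 3 other groups. The largest difference of STAT2 was the Rego effect in SNU449-Axl- cells, where the libraries did not overlap (0.60 ± 0.237, SE, adjusted p = 0.166, limma). Its Rego effect in SNU449 cells was 0.33 ± 0.237 (adjusted p = 0.461, limma) and was 0.00 without the library at 58. With Axl loss it differed by -0.36 in control and -0.09 in resistant cells. In normalized counts resolved into group means, STAT2 had 57.47 in SNU449 control, 74.86 in SNU449-Rego, 40.81 in SNU449-Axl- control and 83.66 in SNU449-Axl- Rego cells.

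STAT6 was lower in SNU449-Axl- control cells than in the 3 other groups, whose levels lay close to each other. The values per library were 280, 217 and 225 in SNU449 control, 176, 233 and 306 in SNU449-Rego, 162, 153 and 130 in SNU449-Axl- control, and 222, 228 and 198 in SNU449-Axl- Rego cells. No SNU449-Axl- control library reached the lowest library of another group. The difference with Axl loss in control cells missed the threshold (-0.69 ± 0.214, SE, adjusted p = 0.0565, limma) and passed it without SNU449-Rego replicate 1 or 3 (-0.69, adjusted p = 0.0377 and 0.0281, limma). Without the replicate block it passed as well (-0.69, adjusted p = 0.0205, limma). The Rego effect in SNU449-Axl- cells missed the threshold (0.54 ± 0.214, adjusted p = 0.167, limma). STAT6 differed by -0.04 with Rego resistance in SNU449 cells and by -0.11 with Axl loss in resistant cells.

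STAT5B was highest in SNU449-Rego cells, where its library values were 122, 103 and 109, against 84, 86 and 73 in SNU449 control cells. It had 77, 103 and 92 in SNU449-Axl- control and 92, 78 and 98 in SNU449-Axl- Rego cells, and these groups overlapped with SNU449 control cells and with each other. The SNU449-Rego libraries lay above the SNU449 control libraries without overlap, yet the difference did not pass (0.45 ± 0.193, SE, adjusted p = 0.175, limma). Its differences in the 3 other comparisons were -0.02 for Rego in SNU449-Axl- cells, and 0.15 and -0.32 for Axl loss in control and resistant cells.

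STAT4, a factor best known from lymphocytes, was barely detected. It reached 24, 25 and 20 in SNU449 control, 24, 33 and 25 in SNU449-Rego, 35, 32 and 40 in SNU449-Axl- control, and 28, 21 and 28 in SNU449-Axl- Rego cells, near the lowest value in the table, 12. The SNU449-Axl- control libraries lay above those of SNU449 control and of SNU449-Axl- Rego cells, with differences of 0.61 ± 0.192 (SE, adjusted p = 0.0601, limma) for Axl loss in control cells and -0.47 ± 0.192 (adjusted p = 0.19, limma) for the Rego effect. The former passed the threshold without SNU449-Rego replicate 2 (0.61, adjusted p = 0.0482, limma), with the libraries centred on the spike-in RNAs (0.81, adjusted p = 0.0243, limma) and without the replicate block (0.61, adjusted p = 0.0196, limma). Of the tables of a pair of groups, only the 3 with SNU449-Axl- control cells listed STAT4. In the pairs its listing thus depended on the group where it was highest, and these differences are given as a description only.

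With the libraries centred on the spike-in RNAs, several differences near 0 changed sign. This held for STAT6 with Rego in SNU449 cells (0.01), for STAT5B with Rego in SNU449-Axl- cells (0.12), and for STAT2 (0.21), STAT4 (0.21) and STAT6 (0.18) with Axl loss in resistant cells.

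**Figure D2:**
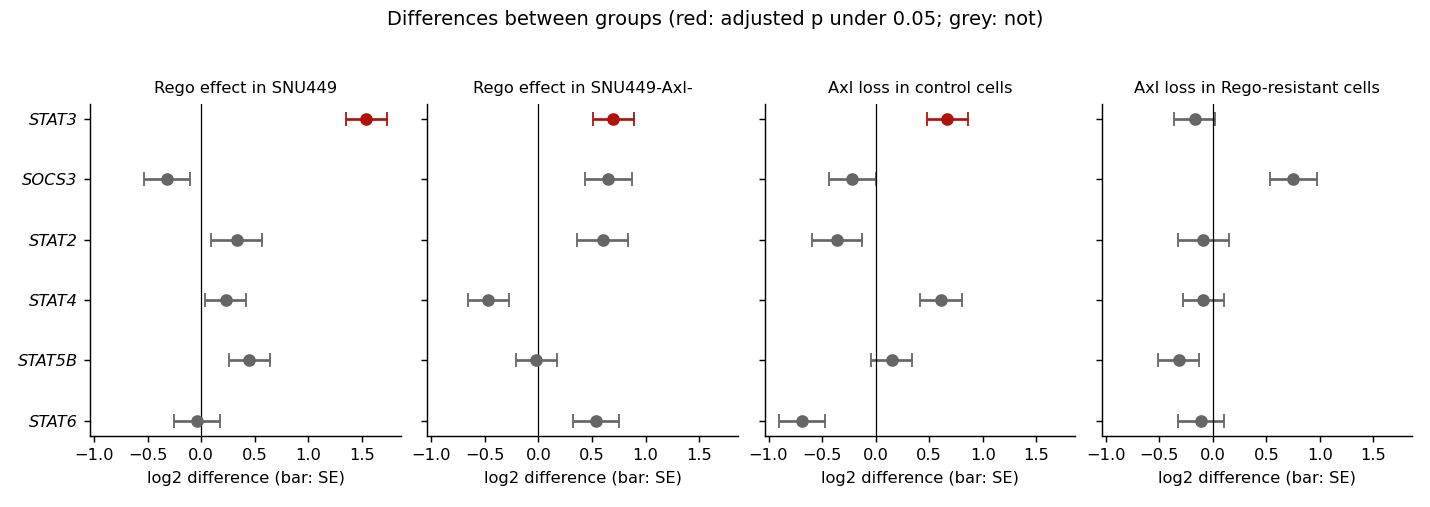
Log2 differences (points) with SE (bars) of the 6 genes in the 4 comparisons, in red where the adjusted p was under 0.05 and in grey otherwise. STAT3 is red in the first 3 comparisons, at 1.54, 0.70 and 0.67, and no other gene is red.

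Counted over the 6 genes, 1 was called higher and 0 lower with Rego resistance in SNU449 cells, where 7.81% of all genes were called (4.31% higher and 3.50% lower). In SNU449-Axl- cells it was again 1 higher and 0 lower, against 4.35% of all genes (2.54% higher and 1.81% lower). With Axl loss in control cells 1 was higher and 0 lower, against 7.45% (4.03% higher and 3.43% lower), and in resistant cells 0 were called, against 4.37% (2.44% higher and 1.93% lower). In the test of the difference between the Rego effects 0 were called, against 5.87% (2.95% and 2.92%). In each of these counts with a call, the called gene was STAT3. By the unadjusted p of limma, 2, 5, 3 and 1 of the 6 genes were under 0.05 in the 4 comparisons in this order, and 3 in the test of the difference. The share of all genes under this unadjusted threshold is not given here, so these counts are no result about the 6 genes. Each population enters 2 of the 4 comparisons, so that the calls of STAT3 in SNU449 cells and between the controls share the SNU449 control libraries and are not independent of each other.

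Libraries without overlap were more frequent than calls, for the 6 genes as for all. With Rego resistance in SNU449 cells 2 genes were higher without overlap and 0 lower, against 14.6% and 13.3% of all genes. In SNU449-Axl- cells these were 4 and 1, against 15.0% and 14.1%. With Axl loss, 2 were higher and 1 lower in control cells, against 14.5% and 13.4%, and 1 was higher and 1 lower in resistant cells, against 14.8% and 13.2%. In SNU449-Axl- cells, the 4 genes higher with resistance were STAT2, STAT3, STAT6 and SOCS3, and the lower one was STAT4. STAT4 was also 1 of the 2 genes higher with Axl loss in control cells. It was barely detected, and in the pairs its listing depended on the group where it was highest. Its part in these counts is a description only.

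The other genes of the pathway were taken from lists of receptors, ligands, kinases, regulators, partners and targets, of which 125 of 168 genes were tested. Of these 125, 3 rose and 12 fell with Rego resistance in SNU449 cells, 10 rose and 2 fell in SNU449-Axl- cells, 10 were higher and 11 lower with Axl loss in control cells, and 7 were higher and 2 lower with Axl loss in resistant cells. The share called was 12%, 9.6%, 16.8% and 7.2%, against the 7.81%, 4.35%, 7.45% and 4.37% of all genes given above. The lists were written by hand with earlier results of these data known, so that the shares called in them are a description only.

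Upstream of the STATs, the cytokine IL15 and its receptor chain IL15RA both fell with Rego resistance in SNU449 cells. IL15, which acts on lymphocytes through STAT5, had library values of 63, 83 and 63 in SNU449 control, 41, 39 and 38 in SNU449-Rego, 26, 22 and 26 in SNU449-Axl- control, and 53, 51 and 57 in SNU449-Axl- Rego cells. It fell with resistance in SNU449 cells (-0.80 ± 0.185, SE, adjusted p = 0.011, limma) and rose in SNU449-Axl- cells (1.09 ± 0.185, adjusted p = 0.00201, limma), a difference of effects of -1.89 ± 0.261 (adjusted p = 0.000273, limma). The fall of IL15 in SNU449 cells was not called in the table of that pair alone (-0.60, adjusted p = 0.0567, limma). IL15RA had 54, 66 and 51 in SNU449 control cells and between 22 and 35 in all other libraries (-1.01 ± 0.206 with resistance in SNU449 cells, adjusted p = 0.00443, limma). Among the 19 tested receptors, OSMR, which carries oncostatin M signals to STAT3, was the only one called higher, with Axl loss in control cells (0.80, adjusted p = 0.023, limma). Among the 11 tested ligands, CSF3 was higher with Axl loss in control cells (0.81, adjusted p = 0.0176, limma) and IL7 with Axl loss in resistant cells (0.86, adjusted p = 0.0236, limma). Both were weak, with 19, 22 and 23 against 49, 34 and 33 for CSF3, and 20, 23 and 22 against 40, 38 and 42 for IL7. In the order above, 5.26%, 0%, 10.5% and 0% of the receptors and 9.09%, 9.09%, 18.2% and 9.09% of the ligands were called. For all genes it was 7.81%, 4.35%, 7.45% and 4.37%.

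All 4 JAKs were tested. The share of these 4 called was 0% in 3 comparisons and 50% for Axl loss in resistant cells, against 4.37% of all genes there. Of the 4 comparisons between groups, only that of the resistant populations called any, with JAK1 higher (0.68 ± 0.189, SE, adjusted p = 0.0459, limma) and TYK2 lower (-0.79 ± 0.191, adjusted p = 0.0227, limma) in SNU449-Axl- Rego cells. JAK1, the kinase shared by most of these receptors, had 556, 501 and 473 in SNU449-Rego and 804, 892 and 764 in SNU449-Axl- Rego cells. TYK2, which serves the interferon and IL-12 receptors, had 98, 119 and 105 against 65, 54 and 66, with 79, 69 and 62 in SNU449 control cells. The Rego effects on TYK2 in the 2 backgrounds also differed (1.27 ± 0.27, adjusted p = 0.00842, limma). The JAK1 call held in 4 of the 12 fits without 1 library (0.60 to 0.77, adjusted p up to 0.217, limma) and that of TYK2 in 7 (-0.87 to -0.67). With the libraries centred on the spike-in RNAs, the TYK2 difference was no longer called (-0.50, adjusted p = 0.137, limma).

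Of 16 tested negative regulators, SOCS3 left aside, 1 rose and 3 fell with Rego resistance in SNU449 cells, 2 were higher and 2 lower with Axl loss in control cells, and 0 were called in the 2 other comparisons. The share called was 25% in each of the first 2, against 7.81% and 7.45% of all genes. In the 2 others it was 0%, against 4.35% for Rego in SNU449-Axl- cells and 4.37% for Axl loss in resistant cells. PTPN1, a phosphatase that removes phosphate from JAKs, had library values of 2362, 3406 and 3069 in SNU449 control cells and stayed between 839 and 1529 in all others. It fell by 1.11 on the log2 scale with resistance in SNU449 cells (adjusted p = 0.00169, limma) and was lower with Axl loss in control cells (-1.02, adjusted p = 0.00393, limma). SOCS1, a relative of SOCS3 that inhibits JAKs directly, was also highest in SNU449 control cells, at 72, 69 and 63, against 19 to 41 elsewhere (-1.09, adjusted p = 0.00311, and -0.92, adjusted p = 0.0117, limma, in the same comparisons). Outside SNU449 control cells SOCS1 was thus weak, as the lowest value of any gene was 12. SH2B3, an adaptor that restrains JAK2, fell with resistance in SNU449 cells (-1.02, adjusted p = 0.00846, limma). PIAS4, a SUMO ligase of the protein inhibitor of activated STAT family, rose by 0.69 with resistance in SNU449 cells (adjusted p = 0.0278, limma) and was higher by 0.78 with Axl loss in control cells (adjusted p = 0.0143, limma), and PIAS3 was higher by 0.61 with Axl loss in control cells (adjusted p = 0.0391, limma). In the table of SNU449 and SNU449-Rego cells alone, PIAS4 was not called (0.54, adjusted p = 0.111, limma). Of 11 partners of STAT proteins, NMI, an interferon-inducible STAT binder, fell with resistance in SNU449 cells (-0.98, adjusted p = 0.00862, limma), and KPNA1, an importin that carries STATs into the nucleus, was higher with Axl loss in control cells (0.78, adjusted p = 0.024, limma). The share of partners called was 9.09% in each of these 2 comparisons, near that of all genes, and 0% in the 2 others. In the table of the control populations alone, OSMR (0.69, adjusted p = 0.0604), CSF3 (0.52, adjusted p = 0.0807), PIAS3 (0.48, adjusted p = 0.109), PIAS4 (0.63, adjusted p = 0.063) and KPNA1 (0.69, adjusted p = 0.0605, limma) were not called, and SOCS1 was not called with the libraries centred on the spike-in RNAs (-0.72, adjusted p = 0.0559, limma).

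**Figure D3:**
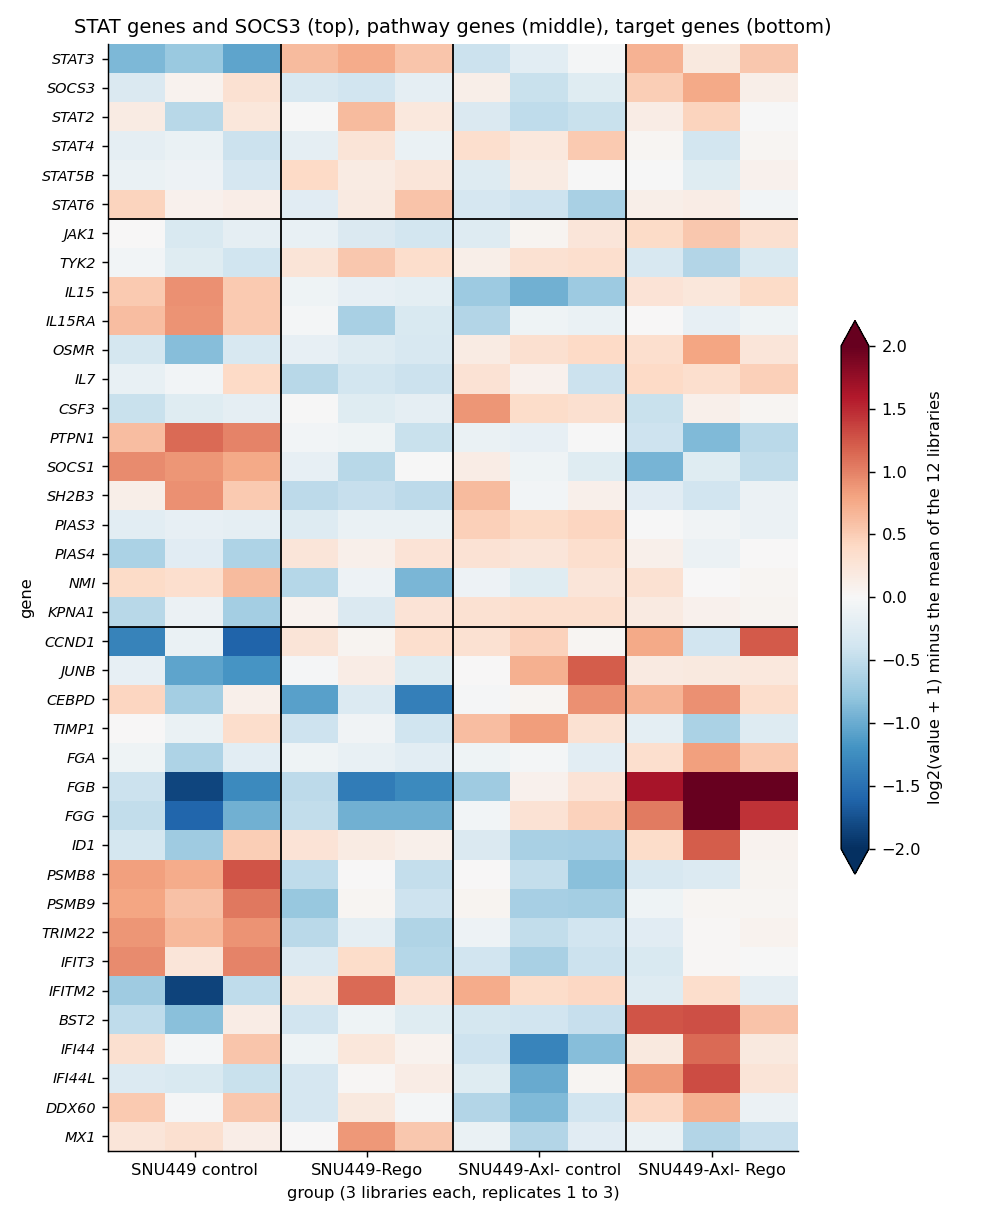
Heat map of log2(value + 1) in each of the 12 libraries, minus the mean over all 12, for STAT genes and SOCS3 (top), pathway genes (middle) and target genes (bottom) named in the text, with values beyond 2 in either direction drawn in the end colours. PTPN1, SOCS1, IL15 and IL15RA are highest in SNU449 control libraries, where STAT3 is lowest, and FGB and FGG are highest in SNU449-Axl- Rego libraries.

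Of the 30 listed STAT3 target genes, 23 were tested. With Rego resistance in SNU449 cells, where STAT3 itself rose most, 1 of them rose and 0 fell, and their median difference was -0.01, against 0.00 over all genes. The share called was 4.35%, against 7.81% of all genes. In SNU449-Axl- cells 3 rose and 1 fell (median 0.21, all genes 0.01), or 17.4% against 4.35% of all genes. Of these 4, FGA lost its call with the other table over all libraries (adjusted p = 0.0512), pseudocount 0 (0.0504), median centring (0.0614) and no variance trend (0.0581, limma), and TIMP1 with centring on the spike-in RNAs (-0.81, adjusted p = 0.0543, limma). With Axl loss 4 were higher and 0 lower in control cells (median 0.22, all genes 0.00), and again 4 and 0 in resistant cells (median 0.27, all genes 0.01), which is 17.4% in both, against 7.45% and 4.37% of all genes.

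The fibrinogen chain genes FGA, FGB and FGG, acute-phase genes of liver, set the SNU449-Axl- Rego cells apart. They were the 3 listed STAT3 targets that rose with resistance in SNU449-Axl- cells. With CEBPD they were also the 4 called higher with Axl loss in resistant cells, so both shares rest largely on them. FGB had library values of 189, 547 and 294 in these cells, against 36, 63 and 72 in SNU449-Axl- control, 41, 22 and 24 in SNU449-Rego, and 44, 16 and 24 in SNU449 control cells. It rose by 2.49 ± 0.382 (SE, adjusted p = 0.000805, limma) with resistance in SNU449-Axl- cells and was higher by 3.44 ± 0.382 (adjusted p = 2.9e-05, limma) than in SNU449-Rego cells. FGG had 91, 214 and 121 in SNU449-Axl- Rego cells, 42, 54 and 61 in SNU449-Axl- control cells and 14 to 31 in the Axl-proficient libraries. Its differences were 1.35 (adjusted p = 0.0147, limma) for Rego in SNU449-Axl- cells and 1.24 (adjusted p = 0.015) and 2.39 (adjusted p = 0.000106, limma) for Axl loss in control and resistant cells. FGA was weak in all groups, with 34, 48 and 39 in SNU449-Axl- Rego cells and at most 26 elsewhere (0.71 for Axl loss in resistant cells, adjusted p = 0.0376, limma).

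Of the other STAT3 targets, CCND1, which encodes cyclin D1, rose with resistance in SNU449 cells (1.24 ± 0.357, SE, adjusted p = 0.0391, limma) and was higher with Axl loss in control cells (1.30, adjusted p = 0.0328, limma). Its mean was lowest in SNU449 control cells, with values of 209, 479 and 173, and its SNU449-Axl- Rego values spread from 404 to 1237. Without 1 library, the first call held in 5 of the 12 fits (0.85 to 1.83, adjusted p up to 0.211, limma) and the second in 7 (0.91 to 1.89, adjusted p up to 0.164, limma), and both were lowest without SNU449 control replicate 3. JUNB, an AP-1 component, was higher with Axl loss in control cells (1.44, adjusted p = 0.00408, limma), but was not called in the table of that pair alone (1.33, adjusted p = 0.0578, limma). CEBPD, an acute-phase transcription factor, was higher with Axl loss in resistant cells (1.56, adjusted p = 0.0084, limma). TIMP1, an inhibitor of metalloproteinases, fell with resistance in SNU449-Axl- cells (-0.95, adjusted p = 0.0139, limma).

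Of the 44 listed type I interferon target genes, which ISGF3 with STAT2 controls, 40 were tested. With Rego resistance 1 rose and 6 fell in SNU449 cells (median -0.12, all genes 0.00), and 5 rose and 1 fell in SNU449-Axl- cells (median 0.28, all genes 0.01). The share called was 17.5% and 15%, against 7.81% and 4.35% of all genes. With Axl loss 2 were higher and 7 lower in control cells (median -0.28, all genes 0.00), and 1 was higher and 1 lower in resistant cells (median 0.22, all genes 0.01), or 22.5% and 5% against 7.45% and 4.37%. In the test of the difference between the Rego effects, 1 was positive and 7 were negative (median -0.48, all genes -0.01), or 20% against 5.87%.

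PSMB8 and PSMB9, subunits of the immunoproteasome, were highest in SNU449 control cells. PSMB9 had 460, 399 and 551 there, against 157, 273 and 200 in SNU449-Rego, 276, 168 and 166 in SNU449-Axl- control, and 249, 272 and 273 in SNU449-Axl- Rego cells. PSMB8 fell with resistance in SNU449 cells (-1.26, adjusted p = 0.00238, limma) as PSMB9 did (-1.18, adjusted p = 0.00407, limma), and both were lower with Axl loss in control cells (-1.37, adjusted p = 0.00153, and -1.23, adjusted p = 0.00339, limma). TRIM22, an antiviral ubiquitin ligase, had 66, 56 and 67 in SNU449 control cells and 23 to 37 in all others (-1.25 with resistance in SNU449 cells, adjusted p = 0.00042, limma). IFIT3, which binds viral RNA complexes, was lower with Axl loss in control cells (-1.21, adjusted p = 0.0052, limma).

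Another set rose with resistance in SNU449-Axl- cells. BST2, which tethers budding viruses to the cell surface, had 118, 121 and 73 there and 27 to 54 elsewhere (1.44 for Rego in SNU449-Axl- cells, adjusted p = 0.00223, and 1.28 for Axl loss in resistant cells, adjusted p = 0.00554, limma). IFI44, IFI44L and DDX60 also rose with resistance in SNU449-Axl- cells, by 1.37 (adjusted p = 0.00642, limma), 1.21 (adjusted p = 0.017, limma) and 0.96 (adjusted p = 0.0322, limma). IFI44 and DDX60 were, however, lower with Axl loss in control cells (-1.14, adjusted p = 0.0136, and -0.96, adjusted p = 0.0203, limma). In SNU449-Axl- Rego cells IFI44 had 59, 113 and 59 and DDX60 83, 102 and 57. These overlapped with the SNU449 control values of 64, 50 and 76, and of 89, 61 and 90. MX1, a dynamin-like antiviral GTPase, was lower with Axl loss in resistant cells (-0.86, adjusted p = 0.0318, limma), a call that was lost with the libraries centred on the spike-in RNAs (-0.57, adjusted p = 0.129, limma). MX1 was weak, with 32, 59 and 47 in SNU449-Rego and 29, 21 and 23 in SNU449-Axl- Rego cells. IFITM2, a membrane protein that blocks virus entry, was lowest in SNU449 control cells, at 280, 126 and 322, and rose with resistance in them (1.58, adjusted p = 0.00349, limma). IFITM2 has near-identical neighbours, and the counting could have split its reads among them. Without SNU449 control replicate 2 its Rego effect in SNU449 cells was 1.02, still called. Without SNU449-Axl- control replicate 2 the Rego effect on IFI44L in SNU449-Axl- cells was 0.80 and no longer called.

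**Figure D4:**
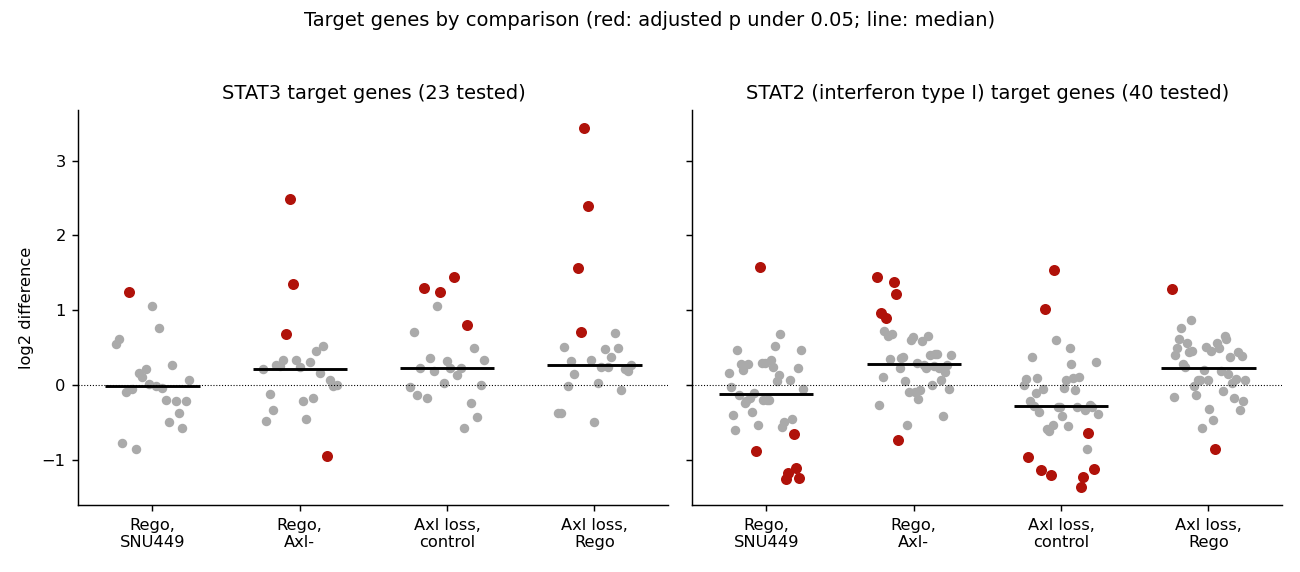
Log2 differences of the 23 tested STAT3 target genes and the 40 tested type I interferon target genes (points) in the 4 comparisons, in red where the adjusted p was under 0.05, with a line at the median of each list. The interferon targets have a median of -0.12 for Rego in SNU449 and of 0.28 for Rego in SNU449-Axl- cells.

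Of the 11 tested STAT5 targets, CCND1 was called as above and ID1, an inhibitor of differentiation factors, rose with resistance in SNU449-Axl- cells (1.09, adjusted p = 0.043, limma). The ID1 call held in 6 of the 12 fits without 1 library, and without SNU449-Axl- Rego replicate 2 the difference was 0.65 (adjusted p = 0.333, limma). Of 4 tested STAT6 targets, only SOCS1 was called, with the values given above among the negative regulators. In the order of comparisons above, 9.09%, 9.09%, 9.09% and 0% of the STAT5 targets and 25%, 0%, 25% and 0% of the STAT6 targets were called. For all genes it was 7.81%, 4.35%, 7.45% and 4.37%.

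Other calls of pathway and target genes were also close to the threshold when 1 of the 12 libraries was left out at a time. For Axl loss in control cells, PIAS3 was called in 4 of the 12 fits, KPNA1 in 7, PIAS4 in 8, and OSMR and CSF3 in 9 each. For Axl loss in resistant cells, IL7 and FGA were called in 6 each, CEBPD in 8 and BST2 in 10. For Rego in SNU449 cells PIAS4 was called in 7 and NMI in 11, and for Rego in SNU449-Axl- cells FGA was called in 3, DDX60 in 8, TIMP1 in 10 and BST2 in 12.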

How the data were processed

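Poly-A trimming with cutadapt 4.0 and alignment to GRCh38 with STAR 2.5.3a (GENCODE v40 with spike-in sequences), gene counting, a filter on weakly expressed genes and DESeq2 comparisons that accounted for the preparation date were done by the authors. The deposited library values are scores and not counts: they were taken to be rounded powers of 2 of variance-stabilized expression from which the preparation effect had been subtracted. The deposited mean normalized count of a gene is a signal averaged by the authors over the libraries of a table. The log2 fold changes and p-values of the authors' own comparisons were not used. The depth per library is unknown, and no interval that needs it is given.

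From the 12-library table made to compare the Axl backgrounds, 32 spike-in RNAs were left out. The value of each library was taken as log2(value + 1) and a linear model with group and replicate number as terms was fitted to all 15601 genes (R 4.3.3, limma 3.58.1, moderated variances with a trend on the mean level). A two-sided p, adjusted after Benjamini and Hochberg, under 0.05 was a call. The replicate number was kept as a block because the deposited values had the preparation effect removed along it, which uses up degrees of freedom. The labels name no preparation date. The deviations of same-numbered libraries from their group means correlated with r from -0.485 to -0.0906 over 18 pairs. Removing an effect along the number pushes these correlations below 0, so they cannot show whether the number pairs cell samples. Replicate-number means deviated by a median of at most 0.00127 log2, against 0.122 for single libraries. The fit was tested on simulated data. Alternatives were other tables, pseudocount 0, median and spike-in centring, a mean normalized count of at least 10, no trend, no replicate block, and leaving out each library.

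The genes and lists were chosen with earlier results of these data known. Of the lists, up to 4 called genes per comparison with the largest difference and no overlap of libraries were named (for the difference between Rego effects, without the condition on overlap), beside the 6 listed genes, AXL and GAS6, and the 3 genes most like a called gene. The promoter letters of STAT genes were read from the GRCh38 sequence by the deposited coordinates. The promoter of SOCS3 is not reported here.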

Additional observations from a re-analysis of the deposited data

Results flagged for a closer look

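The Rego effects in SNU449 and in SNU449-Axl- cells were compared as the first minus the second, an interaction term tested with limma. This difference passed the threshold for 5.87% of all genes, and for none of the 6 listed STAT genes and SOCS3. The genes below were named because they passed, so their number is no result. FGB, an acute-phase target, had a difference of -2.38 ± 0.54 (SE, adjusted p = 0.0126, limma), with a Rego effect of 2.49 in SNU449-Axl- and 0.11 in SNU449 cells. Among interferon targets the values were -1.58 for IFI44, -1.60 for PSMB9 and -1.52 for TRIM22, and 2.11 for IFITM2. PSMB8 (-1.51), DDX60 (-1.36), BST2 (-1.28) and IFIT3 (-1.27) passed as well. The cytokine IL15 and its receptor chain IL15RA had -1.89 and -1.19, NMI had -1.13, PIAS4 had 0.98 and the kinase TYK2 had 1.27. GAS6, the ligand of Axl, had 1.29 (adjusted p = 0.0198, limma). Its library values were 87, 84 and 60 in SNU449 control, 131, 106 and 151 in SNU449-Rego, 125, 163 and 117 in SNU449-Axl- control, and 83, 82 and 112 in SNU449-Axl- Rego cells. With the libraries centred on the spike-in RNAs, the differences of GAS6 (1.20, adjusted p = 0.0569, limma) and PIAS4 (0.89, adjusted p = 0.123, limma) did not pass. When 1 of the 12 libraries was left out at a time, the call held in 2 of the 12 fits for NMI (adjusted p up to 0.138, limma), 2 for PIAS4, 6 for GAS6, 8 for IL15RA and 12 for TYK2. Groups of 3 libraries were not tested for single libraries that stand apart.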

How the results depend on the processing

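Without a replicate block, calls rose for all genes to 2175 and 1552 for Rego in SNU449 and SNU449-Axl- cells, 2182 and 1503 for Axl loss in control and resistant cells, and 1826 for the difference between Rego effects, and of the 6 genes 2 were called for Rego in SNU449-Axl- cells, 3 and 1 for Axl loss in control and resistant cells, and 2 for the difference. SOCS3 was then called for Axl loss in resistant cells (adjusted p = 0.0228, limma), Rego in SNU449-Axl- cells (0.0455) and the difference (0.0308), as was STAT3 for the difference (0.0244). In the tables of the pairs alone, all genes gave 603 calls for Rego in SNU449 cells, and 603 and 1160 for Axl loss in control and resistant cells, and the 6 genes 0 for Rego in SNU449-Axl- cells and 0 and 1 for Axl loss. An alternative added after seeing the data, the pair tables with no replicate block, gave 2947 and 3566 calls for Rego and 3750 and 4024 for Axl loss over all genes, and 2, 5, 3 and 2 over the 6 genes. The pair tables for Rego in SNU449 cells and for Axl loss in resistant cells do not list STAT4, so that these counts are over 5 genes. Centring on the median gene left 0 of the 6 genes called for Rego in SNU449-Axl- cells, with 715 calls over all genes. Centring on spike-in RNAs put the median of all genes at up to 0.31, from 0.01 (Axl loss in resistant cells, with 1799 calls) and gave 2 and 1 of the 6 genes for Axl loss in control and resistant cells. It reversed differences near 0: 0.01 for STAT6 with Rego in SNU449, 0.12 for STAT5B with Rego in SNU449-Axl-, and, for Axl loss in resistant cells, 0.21 for STAT2, 0.13 for STAT3, 0.21 for STAT4 and 0.18 for STAT6. The causes were not tested.

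With 1 library left out at a time, all genes gave 740 to 1299, 205 to 891, 540 to 1275, 219 to 826 and 523 to 922 calls in the order above, and the 6 genes 1, 0 to 1, 0 to 2, 0 to 1 and 0 to 1. Signs turned for STAT2 (0.00 to 0.53) and STAT6 (-0.30 to 0.23) with Rego in SNU449, for STAT5B with Rego in SNU449-Axl- (-0.17 to 0.11), for STAT2 (-0.28 to 0.15), STAT3 (-0.30 to 0.02), STAT4 (-0.20 to 0.10) and STAT6 (-0.37 to 0.16) with Axl loss in resistant cells, and for AXL in the difference between Rego effects (-0.04 to 0.51). Over all values of single genes given here, pathway genes included, leaving out 1 library took away a call in 178 fits, added one in 10 and turned a sign in 13, with 963 on the same side. The STAT3 call for Rego in SNU449 cells held in all alternatives run. The depth per library is unknown, so that no detection limit could be set for weakly expressed genes such as STAT4.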

Other observations

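The genes within 500 kb of STAT3 were examined after the values of STAT3 had been seen. Of 39 such genes, 0 rose and 1, ACLY, fell with Rego resistance in SNU449 cells, and their median log2 difference was 0.05, with a range from -0.91 to 0.66. With resistance in SNU449-Axl- cells 2 rose and 0 fell (median 0.07), and with Axl loss 1 was higher and 0 lower in control cells (median 0.04) and in resistant cells (median 0.03). Of all genes, 7.81%, 4.35%, 7.45% and 4.37% were called in these comparisons in this order.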
